A study of Drosophila melanogaster with 2 samples.

Results

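Binding of extra macrochaetae (emc) was examined at 10 genes of the Notch pathway: the ligand gene Dl (Delta), the ubiquitin ligase gene mib1, the receptor gene N (Notch), the receptor-trafficking genes dx and numb, the processing genes kuz, aph-1 and Nct, and the nuclear genes Su(H) and mam. They were listed by name for their place in the pathway, out of 13945 protein-coding genes on the 6 chromosome arms and chromosomes used. The list was made with earlier results of these data known. All 10 were located in the dm6 annotation, with Dl under the symbol Delta (FBgn0000463). The region of a gene was its body with 2 kb on each side, and the 10 regions covered 304 kb.

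Chromatin came from 2 samples of whole Drosophila melanogaster embryos, biological replicates 1 and 3 of 1 group, collected 0 to 24 h after laying and with both sexes pooled. Both samples carried a stable transgene for emc with GFP at its C-terminus, and fragments of 200 to 800 bp were precipitated with an antibody to GFP. The labels do not give the promoter of the transgene, the state of the native emc gene or whether the replicates were separate collections, so the spread between replicates may be partly technical. No control library and no other genotype was analysed here, so the comparisons are between peaks, genes and replicates.

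Notch signalling passes between touching cells. A ligand such as Delta on the sending cell is pulled into that cell after it has been tagged with ubiquitin by Mind bomb, and this exposes the Notch receptor to the metalloprotease Kuzbanian and then to gamma-secretase, which has Aph-1 and Nicastrin among its subunits. The freed intracellular part of Notch joins the DNA-binding protein Suppressor of Hairless and the coactivator Mastermind at target genes. Numb lowers receptor activity in 1 daughter of asymmetric divisions, and Deltex is a ubiquitin ligase that acts on receptor trafficking. The emc product, a helix-loop-helix protein, lacks the basic region that contacts DNA and is best known for holding basic helix-loop-helix proteins in dimers that do not bind E-boxes (CANNTG).

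Sequences around the summits are given for the peaks to which most of the results below refer. They show the intronic peak of N, the peaks at own starts of mib1, numb and aph-1, a peak that lies at the start of the gene beside Nct, and the weaker peak at the start of Su(H). Each is the plus strand of the Release 6 assembly in dm6 coordinates, up to 60 bp on each side of the summit and cut back where an annotated UTR begins. Capitals mark E-boxes and, at Nct, the DNA replication-related element (DRE), TATCGATA.
N intron chrX:3162498-3162618: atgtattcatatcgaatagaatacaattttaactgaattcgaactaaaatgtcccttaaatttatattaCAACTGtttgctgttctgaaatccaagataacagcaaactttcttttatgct
mib1 start chr3L:16011813-16011904: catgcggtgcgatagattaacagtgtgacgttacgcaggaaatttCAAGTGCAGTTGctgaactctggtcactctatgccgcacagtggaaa
numb internal start chr2L:9449638-9449758: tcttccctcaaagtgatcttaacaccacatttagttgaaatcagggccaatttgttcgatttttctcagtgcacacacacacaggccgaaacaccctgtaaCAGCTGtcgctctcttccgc
aph-1 outer chr2L:2765912-2766032: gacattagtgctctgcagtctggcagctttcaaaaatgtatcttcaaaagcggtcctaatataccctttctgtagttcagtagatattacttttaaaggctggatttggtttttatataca
aph-1 inner chr2L:2766128-2766232: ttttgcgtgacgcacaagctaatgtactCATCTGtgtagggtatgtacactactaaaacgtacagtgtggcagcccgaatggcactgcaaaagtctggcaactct
Nct at CG7006 chr3R:24850546-24850626: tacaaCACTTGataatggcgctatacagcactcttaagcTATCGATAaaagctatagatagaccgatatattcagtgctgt
Su(H) start chr2L:15039423-15039487: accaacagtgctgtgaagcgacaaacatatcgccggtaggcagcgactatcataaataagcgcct

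Of the 10 genes, 8 had in their region a peak of the authors' list made by irreproducible discovery rate (IDR), which scores how well replicates agree. Of the 1865 peaks in that list, 1854 overlapped a peak in both replicate lists. The ranks of these 1854 in the 2 lists differed up to 29.7-fold. Being listed therefore does not by itself show that both replicates ranked a peak alike. Dl and Su(H) had no IDR peak. The same rule, an IDR peak in the region, was met by 20.3% of all protein-coding genes. Long genes offer more room: 4 of the 5 members of at least 20 kb had such a peak, against 36.5% of all genes of that length. The single member of 5 to 20 kb, mib1, had such peaks, against 29.0% of genes of that size class. Of the 4 members under 5 kb, 3 had such a peak, against 16.6% of genes of that length. The list was chosen by name with earlier results of these data known, so these shares are descriptions and were not tested.

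The IDR peaks lay at own starts, at neighbours' starts and in introns. Of the 10 IDR peaks in the regions, 4 had their summit within 500 bp of a start of the member, 4 only within 500 bp of a neighbour's start, and 2 lay in introns of N and mam far from any start. An own start was marked in this way at mib1, numb and aph-1, 3 of the 10 genes, against 10.6% of all protein-coding genes. Among the 2827 genes with an IDR peak in their region, 52.3% had a summit at an own start, against 3 of the 8 members. Counted by start site, 3 of the 14 annotated start sites of the members had an IDR summit within 500 bp, against 9.77% of the 19607 start sites of protein-coding genes. Peaks of the pooled list, which also holds weaker peaks and background, lay within 500 bp of 9 of the 14, against 47.8% of all start sites.

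**Figure D1:**
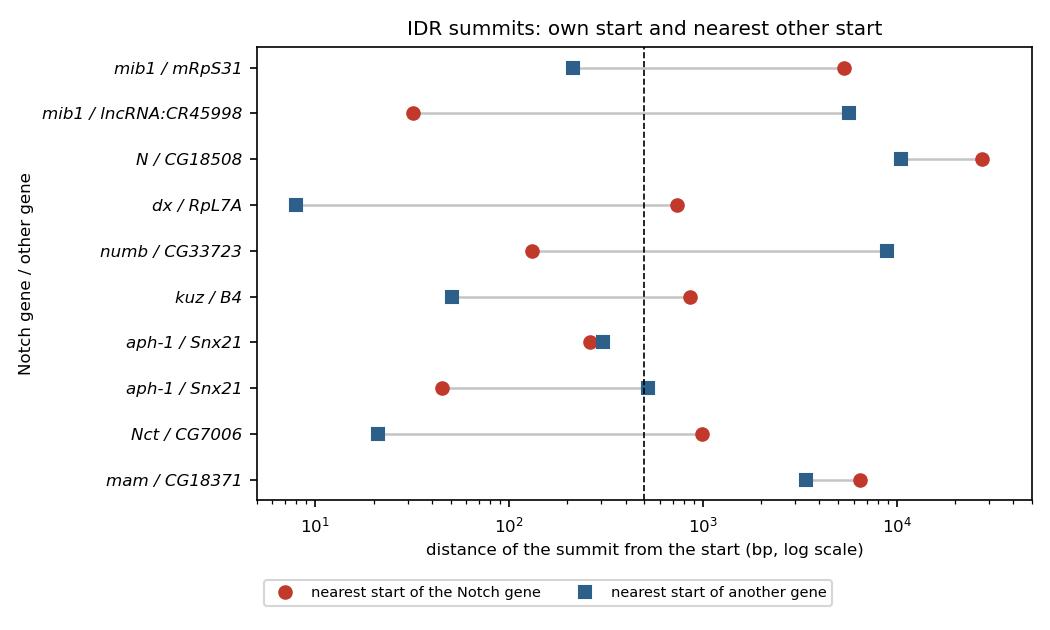
Distance in bp, on a log axis, from the summit of each of the 10 IDR peaks to the nearest start of the Notch gene (circles) and to the nearest start of any other gene (squares), with the dashed line at 500 bp. At dx, kuz, Nct and the downstream peak of mib1 the square lies left of the line and the circle right of it, and at N and mam both symbols lie right of it.

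The ligand gene Dl had the weakest best peak of the 10 genes. Dl (3R 19302731 to 19326217, reverse strand) had 8 peaks in the pooled list and no IDR peak. The strongest, at 3R 19316221 to 19316600 in the second intron and 9806 bp from the single annotated start, had a pooled signal of 37.0, below the lowest signal in the IDR list, 62.7. It ranked 5233 of 29400 in the pooled list, 3452 in replicate 1 and 10088 in replicate 3. Its signal was 21.7 in replicate 1 and 17.3 in replicate 3. Of the 8 peaks, 3 overlapped a peak in each replicate, 2 in 1 replicate and 3 in neither, and the summit nearest to the start of Dl was 2979 bp away with a signal of 19.4. Signal is the authors' value for each peak and is read here only within a list. In whole embryos, strong binding in few cells and weak binding in many cannot be told apart.

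The gene for the ligand's ubiquitin ligase, mib1 (3L 16006552 to 16011812, reverse strand), had an IDR peak at its own start. Its summit lay 32 bp upstream of the distal of its 2 starts, at 3L 16011654 to 16012033, with a signal of 73.8 and rank 1394 of 1865. The signal was 29.4 in replicate 1 (rank 1668) and 36.9 in replicate 3 (rank 1998). The window printed above for this peak holds CAAGTG directly followed by CAGTTG, within 23 bp of the summit. The downstream start of mib1 had a pooled peak at 410 bp with a signal of 28.6, far below the IDR list.

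A further IDR peak in the mib1 region belonged by position to other genes. It lay at 3L 16004788 to 16005167, downstream of mib1, 215 bp from the start of mRpS31, a mitochondrial ribosomal protein gene, and within 500 bp of a start of hzg. Its signal was 72.4 in the pooled list, nearly that of the peak at the mib1 start. The replicates ranked it differently, at 3409 in replicate 1 and 1224 in replicate 3. It was 5331 bp from the nearest start of mib1.

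The receptor gene N carried its strong peak deep inside the gene and none at its start. N spans X 3134870 to 3172221 on the forward strand, 37.4 kb from a single annotated start. The IDR peak lay at X 3162368 to 3162747, 27688 bp from that start, in intron 5 of 8 of the longest transcript, an intron of 4245 bp. Its pooled signal was 90.4, rank 996, and the replicates placed it alike, at rank 1110 (signal 36.9) in replicate 1 and 1035 (52.0) in replicate 3. These ranks differed 1.07-fold, the closest agreement among the 10 IDR peaks. No start of any gene lay within 10 kb, the nearest being that of CG18508 at 10582 bp.

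The other peaks of the N region were weak. Of its 9 pooled peaks, 8 did not pass IDR, and their signals ran between 19.9 and 40.2. The strongest of these, at X 3172333 to 3172712, was past the end of N in the 3' UTR of CG18508 and 617 bp from its start. No pooled summit lay closer than 4008 bp to the start of N.

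At dx, the trafficking ubiquitin ligase gene, the IDR peak sat on a neighbour. Its summit, in X 6533074 to 6533453, was 8 bp from a start of RpL7A, a ribosomal protein gene that points away from dx, and 735 bp upstream of the start of dx (X 6533999 to 6538575, forward strand). The signal was 81.4 in the pooled list, 39.1 in replicate 1 (rank 989) and 40.2 in replicate 3 (rank 1686). The other pooled peak of the region, 714 bp inside dx in a coding exon, had a signal of 26.7. No pooled summit lay within 500 bp of the start of dx.

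At numb the IDR peak lay at the internal start, and none was listed at the first. Numb is the adaptor that antagonises Notch in sensory organ and neuroblast lineages. The IDR peak, at 2L 9449508 to 9449887, had its summit 132 bp upstream of the downstream start of numb (2L 9437469 to 9464184, forward strand), in intron 2 of 3 of the longest transcript. Its pooled signal of 82.6 ranked 1142. The replicates differed 2.19-fold in rank, at 1974 (signal 27.0) in replicate 1 and 902 (55.9) in replicate 3. The window printed above holds the E-box CAGCTG, centred 44 bp from the summit. The first start had no pooled summit within 500 bp, and the nearest, at 945 bp, had a signal of 29.1 and overlapped a peak in replicate 3 but none in replicate 1. A further pooled peak, 720 bp upstream of the internal start, had a signal of 38.9.

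Among the processing genes, aph-1 had the strongest IDR peak of the 10 genes, and the IDR peaks of kuz and Nct were at neighbouring starts. The small gene aph-1 (2L 2766233 to 2767281, forward strand), for a gamma-secretase subunit, had 2 IDR peaks upstream of its start. The outer peak, at 2L 2765782 to 2766161, had a signal of 143 and rank 387 of 1865. Its summit was 261 bp from the start of aph-1 and 307 bp from that of Snx21, a sorting nexin gene that runs the other way, so it cannot be given to either gene alone. The inner peak, at 2L 2765998 to 2766377, had a signal of 111 and rank 660 and lay 45 bp from the start of aph-1. The peaks overlapped by 164 bp and their summits were 216 bp apart, so they are not independent measurements. Their best match in replicate 1 had a signal of 68.1 (rank 324) and in replicate 3 of 64.5 (rank 668).

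The long gene kuz (2L 13550139 to 13639411, forward strand, 89.3 kb), which encodes the Notch metalloprotease, had 19 pooled peaks but only 1 in the IDR list. That peak, at 2L 13549087 to 13549466, was 51 bp from a start of B4, the gene that lies upstream on the opposite strand, and 862 bp upstream of the start of kuz. The signal was 70.8 in the pooled list, 32.8 in replicate 1 (rank 1344) and 36.7 in replicate 3 (rank 2023). A pooled peak did lie 18 bp from the start of kuz itself, with a signal of 25.1 and rank 14893, and it overlapped a peak in replicate 3 but none in replicate 1. Inside kuz the strongest peak was in intron 3, 27520 bp from the start, with a signal of 37.3. The strong peak at this end of kuz was thus at the start of B4, with a weak one at that of kuz.

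Nct, which encodes the gamma-secretase subunit Nicastrin, had a single pooled peak, and it was at the gene upstream. The peak, at 3R 24850416 to 24850795, was 21 bp from the start of CG7006 and 995 bp from the start of Nct (3R 24851601 to 24854869, forward strand), with CG7006 lying between it and Nct. Its pooled signal was 72.3. Replicate 1 ranked it 991 (signal 39.1) and replicate 3 ranked it 2805 (30.8), a 2.83-fold difference and the widest among the 10 IDR peaks. The window printed above for this peak contains a DRE centred 17 bp from the summit, the only DRE within 100 bp of any of the 10 IDR summits.

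Su(H), which encodes the DNA-binding protein of the Notch complex, had its 1 pooled peak directly at its start but below the IDR threshold. The summit in 2L 15039293 to 15039672 lay 5 bp from the single start of Su(H) (2L 15039488 to 15043334, forward strand), closer than at any other member. The signal was 50.4, rank 2724 in the pooled list. Replicate 3 ranked it 2483 (signal 32.9) and replicate 1 only 7016 (17.6). The start of the neighbour CIAPIN1 was 622 bp away.

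The coactivator gene mam (2R 13991203 to 14060356, forward strand, 69.2 kb) had the most pooled peaks, 27, and 1 strong one among them. The IDR peak at 2R 14025006 to 14025385 had a signal of 126 and rank 500 and lay in intron 3 of 6, an intron of 27528 bp, 6467 bp upstream of the third start of mam and 3424 bp from the small nested gene CG18371. Both replicates ranked it high, at 685 (signal 47.5) in replicate 1 and 442 (79.2) in replicate 3. A weaker peak at 2R 14024253 to 14024632 in the same intron had a signal of 55.0. All 3 starts of mam had a pooled summit within 500 bp, with signals of 38.0, 22.6 and 45.2, none of which passed IDR. The peak at the first of them was 52 bp from a start of RN-tre and 444 bp from mam.

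**Figure D2:**
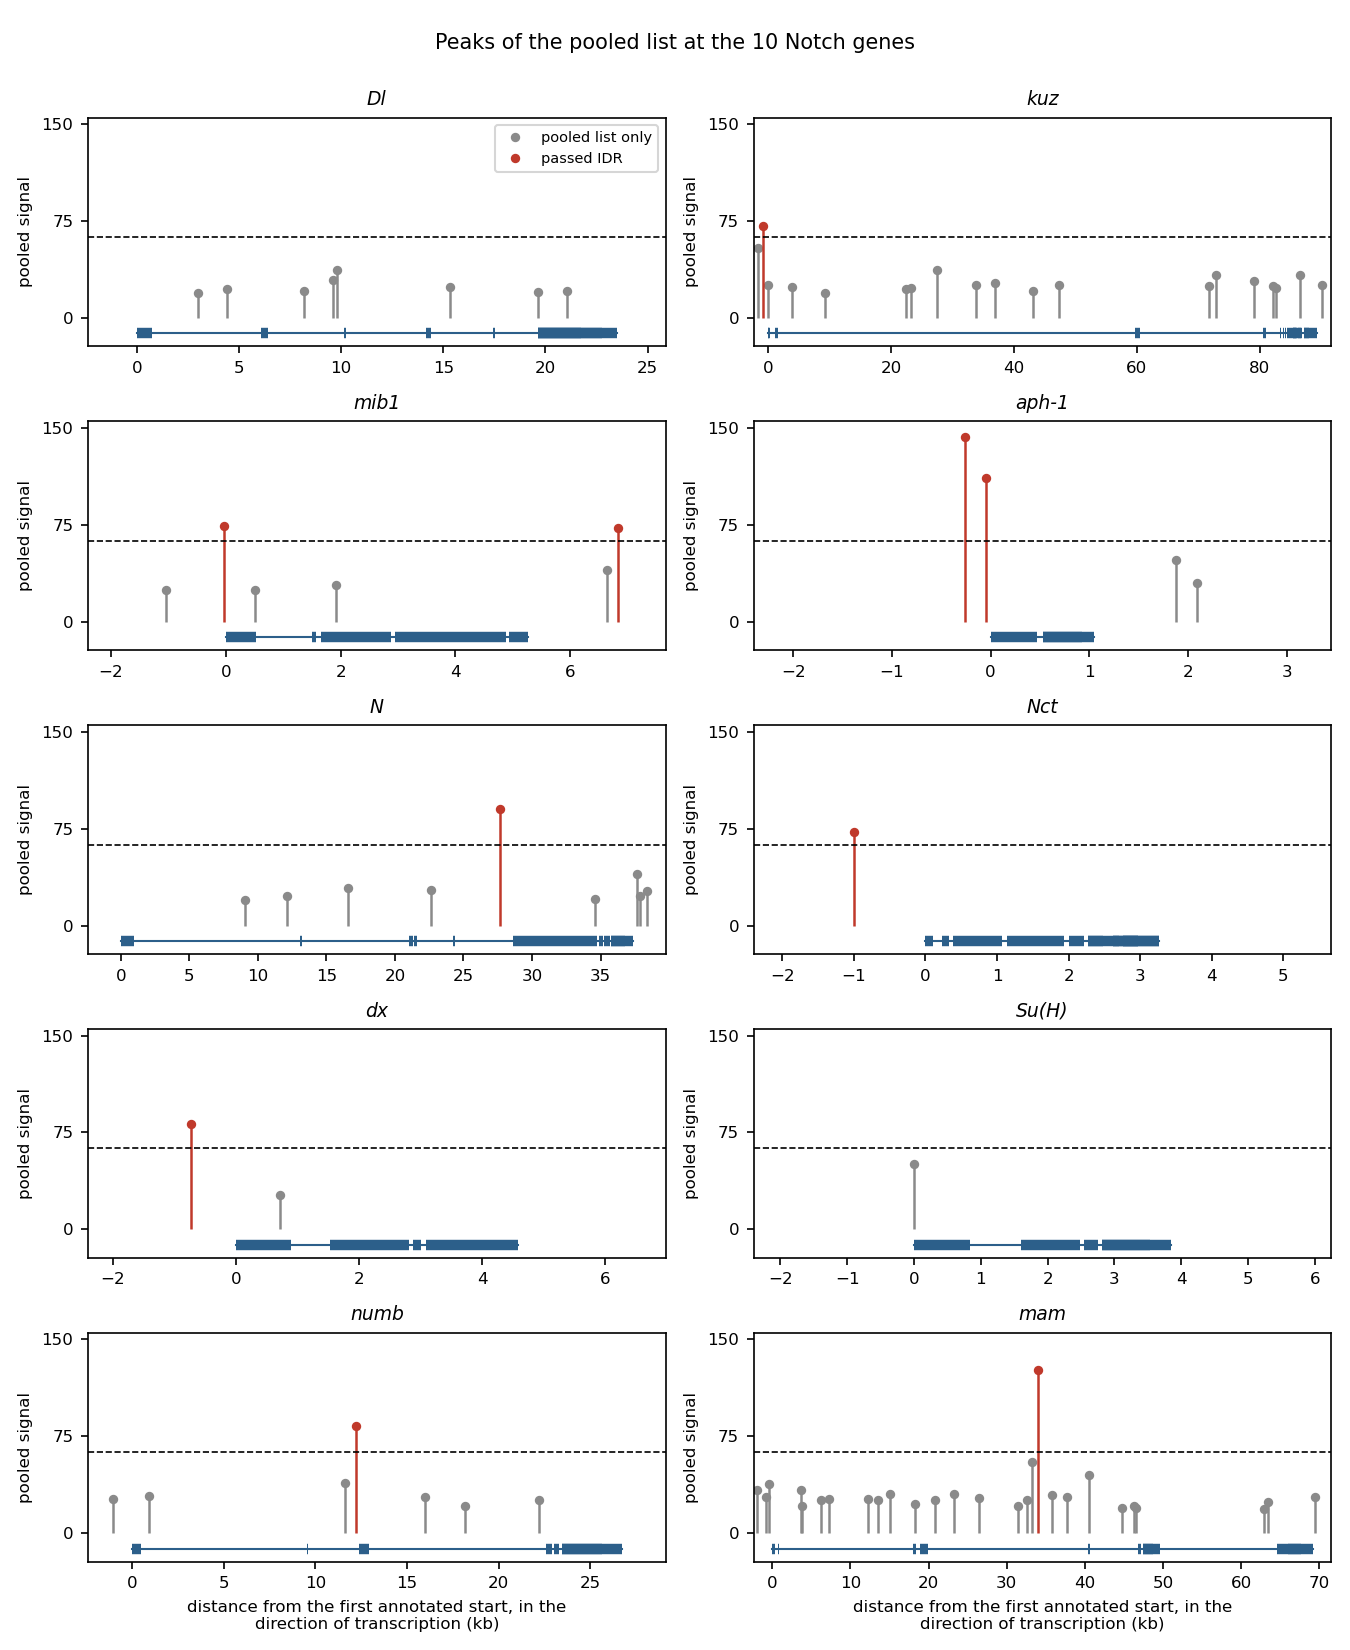
Pooled signal of each peak in the 10 regions against the distance of its summit in kb from the first annotated start, in the direction of transcription, with red stems for IDR peaks, grey stems for other pooled peaks, exons drawn as blue blocks and the dashed line at the lowest IDR signal, 62.7. The 2 peaks of aph-1 and the intronic peaks of mam and N are the tallest, and Dl and Su(H) have no red stem.

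By signal the IDR peaks at the Notch genes mostly lay in the lower part of the IDR list. Their median signal was 82.0, against 94.2 over all 1865 IDR peaks. Their ranks ran from 387 to 1498, and 7 of the 10 were below rank 932, the middle of the list. The order of the members by best peak was aph-1, mam, N, numb, dx, mib1, Nct, kuz, Su(H) and Dl. From N to kuz the pooled signals lie between 90.4 and 70.8 while ranks of single peaks differed up to 2.83-fold between replicates, so the order among these 6 genes is not settled by 2 replicates.

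Agreement between replicates was read from the rank of each IDR peak in the 2 replicate lists. Of the 10 IDR peaks, 5 matched a peak ranked 1865 or better in both replicates (50.0%, exact 95% binomial interval 18.7 to 81.3, which covers counting error only), against 70.1% (67.9 to 72.2) of all IDR peaks, a share inside the members' interval. These were the peaks of N, dx and mam and both of aph-1. The aph-1 peaks had the same best match in each replicate, so the 10 peaks are not independent. The peaks of kuz and Nct and the peak at the mib1 start reached that rank only in replicate 1, and those of numb and of the mRpS31 start beside mib1 only in replicate 3. The ratio between the ranks in the replicates had a median of 1.88, an upper quartile of 2.16 and a maximum of 2.83 at the members. Over the 1854 IDR peaks found in both replicate lists these values were 1.63, 2.33 and 29.7. IDR peaks missing from a replicate list have no such ratio and are left out. When the IDR list was replaced by the 1865 best peaks of replicate 1, numb lost its peak, and when it was replaced by those of replicate 3, kuz and Nct lost theirs and mib1 lost the peak at its own start.

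**Figure D3:**
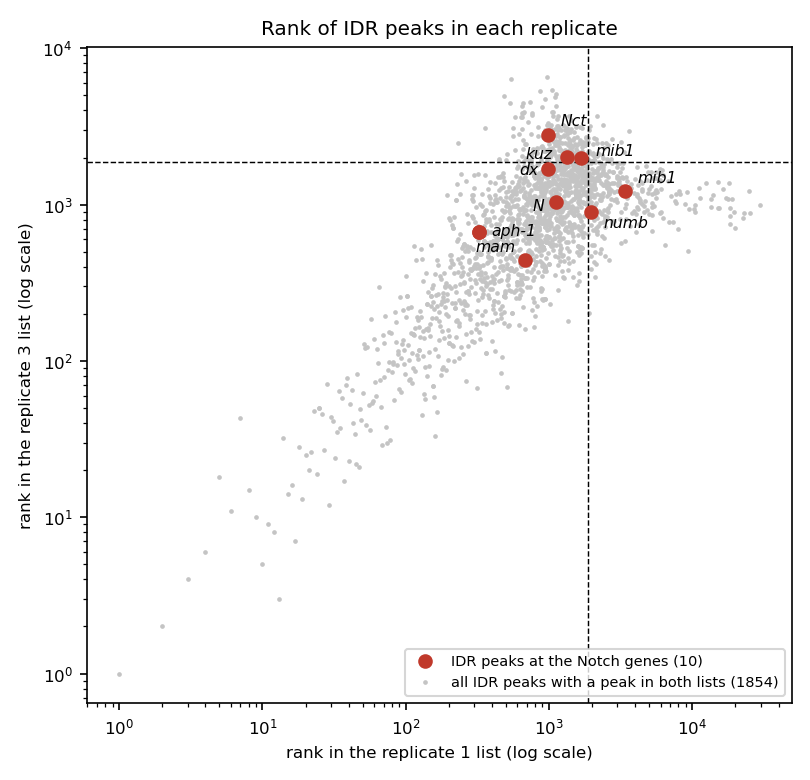
Rank of each IDR peak in the replicate 1 list (x axis) and the replicate 3 list (y axis), both on log scales, with the 10 peaks at Notch genes in red, the 1854 IDR peaks found in both lists in grey and dashed lines at rank 1865. The peaks of N, mam, aph-1 and dx lie below both lines, and both aph-1 peaks share 1 point.

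The 84 pooled peaks of the regions were mostly weak. The genes of at least 20 kb held 70 of them, and their bodies alone made up 246 of the 304 kb of the regions. Their median signal was 26.7, against 25.2 over the 29399 pooled peaks on the chromosomes used. There were 2.76 pooled peaks per 10 kb in the regions, against 2.20 per 10 kb over the chromosomes, and 0.329 IDR peaks per 10 kb, against 0.139. The chromosomes were taken whole, with sequence outside genes, while the regions are genes with flanks. Densities over the regions of all genes were not computed, so these values do not set the members apart from other genes. Of the 84 peaks, 47 overlapped a peak in both replicates by at least 1 bp (56.0%, 44.7 to 66.8), against 43.8% (43.3 to 44.4) of all pooled peaks. Among those below the IDR threshold it was 37 of 74, 50.0% (38.1 to 61.9), against 40.1% (39.5 to 40.7). Overlapping pooled peaks can share a replicate peak, so these counts are not independent.

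Replicate support is given by member as counts, beside the 43.8% of all pooled peaks found in both replicates. The counts are small, and differences between members were not tested. At kuz 12 of 19 pooled peaks were found in both replicates, and at mam 12 of 27, with 14 in 1 replicate only. At numb 2 of 7 were found in both, and at Dl 3 of 8. All pooled peaks of dx, aph-1, Nct and Su(H), few in number, were found in both. Replicate 3 listed 13 peaks in the numb region and replicate 1 listed 6, of which 2 in each list overlapped the other.

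**Figure D4:**
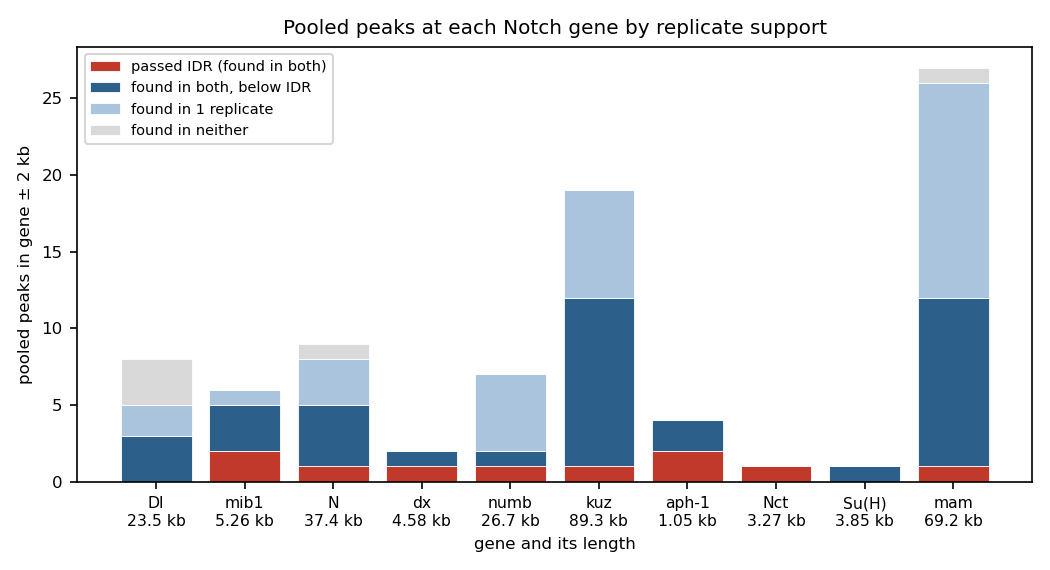
Number of pooled peaks in each gene with 2 kb on each side (y axis), stacked by whether they passed IDR, were found in both replicates below IDR, in 1 replicate or in neither, with the length of the gene in kb under its name. The tallest bars are those of mam (27) and kuz (19), the longest genes, each with 1 IDR peak.

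Away from starts, introns held most of the weaker peaks. Of the 84 pooled summits, 59 lay over 500 bp from any start (70.2%, 59.3 to 79.7), against 72.1% (71.6 to 72.6) of all pooled peaks. By class, 25 of the 84 were at promoters (8 of them IDR peaks), 49 in introns (2 of them IDR peaks), 6 in coding exons, 3 in 3' UTRs and 1 between genes. Shares of these classes over all pooled peaks were not computed, so the counts describe these regions only. None of the peaks in coding exons or 3' UTRs passed IDR, but they were few, and only 6.34% of all pooled peaks passed. The strongest peaks below the threshold were those of mam (55.0), kuz (54.3, 670 bp from a start of B4), Su(H) (50.4), the Taf10 start beside aph-1 (47.7) and the third start of mam (45.2). Other peaks below the threshold lay within 500 bp of starts of neighbouring or nested genes. Beside mib1 such a peak (39.8) was 16 bp from the start of mRpS31 and also near hzg, and beside N a pair (22.9 and 26.7) was near CG18508. Weaker ones lay near RpS28-like at numb (26.2), near CG9254 (25.6) and lncRNA:CR43410 (22.8) within kuz, and near Taf10 and Taf10b at aph-1 (30.1), where the peak of signal 47.7 was near both as well. At mam they were near RN-tre (28.0), CG18371 (28.1), and mir-4978 with the gene listed as FBtr0309641_df_nrg (30.2).

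E-boxes were present at most members' summits, as they were in the IDR list at large. Within 100 bp of the summit, in windows of 201 bp searched on both strands, CANNTG occurred at 8 of the 10 IDR peaks, against 63.4% of all 1865. The peaks without one were the outer peak of aph-1 and that of mam. CAGCTG, at numb, and CACCTG, at kuz, E-boxes known as targets of Daughterless dimers, occurred at 1 of the 10 each, against 10.3% and 5.84% of all IDR peaks. Both are also counted as CANNTG.

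The letters of Su(H) sites and of other motifs were searched in the same windows. GTGGGAA occurred at none of the 10 and GTGAGAA at 1, the peak beside Nct, against 2.31% and 2.73% of all IDR peaks. The DRE occurred at 1 of the 10, against 5.31%, GAGAG at 2, against 23.9%, and the N-box CACNAG at 3, against 23.2%. The GC content of the windows had a median of 38.6% at the members (27.4 to 54.7) and of 37.3% over all IDR peaks. A match is a run of letters and not a measured binding site.

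Among 25 other genes of the Notch pathway, 9 had an IDR peak in the gene with 2 kb on each side, against the same 20.3% of all protein-coding genes. A summit within 500 bp of an own start was found at 5, against 10.6% of all protein-coding genes. These 25 genes ran from 1324 to 125628 bp and were not divided by length. For all genes the share with a peak was 36.5% at 20 kb or more, 29.0% at 5 to 20 kb and 16.6% under 5 kb. The other ligand gene, Ser, had none, nor did Psn and pen-2, which encode the remaining gamma-secretase subunits, or H, which encodes the Su(H) partner Hairless. The highest signals were at Kul, a gene for an ADAM protease related to Kuzbanian (348, 99 bp from the start of CIA30 and 11036 bp from that of Kul), at the furin gene Fur1 (288, 317 bp from its start and 115 bp from that of Vps33B) and at the corepressor gene gro (207, 141 bp from an own start). At gro a second IDR peak (110) lay 4 bp from an own start. Next by highest signal came AP-2alpha, for an endocytic adaptor subunit (145, 64 bp from its start and 226 bp from that of ebi). A second IDR peak there (73.2) was 266 bp from the start of AP-2alpha and 24 bp from that of ebi. These were followed by rumi, for an enzyme that glycosylates Notch (132, 92 bp from its start and 212 bp from that of CG7029), and nej, for the acetyltransferase CBP (120, 683 bp from its start and 440 bp from that of lncRNA:CR42657). The ubiquitin ligase gene neur, whose product acts on Delta as Mind bomb does, had a peak 1732 bp from its start with a signal of 115. The remaining ones were at O-fut1 (80.4, beside CG8323) and at Nedd4 (68.2, 78 bp from an own start).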

How the data were processed

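The authors deposited narrowPeak lists in dm6: 30000 peaks per replicate, 29400 in the list pooled over replicates and 1865 in the IDR list, which was also pooled. Per the file listings deposited with the samples, both replicates were called against the same control alignment. The signal is the value the authors deposited for each peak, on an unstated scale. The −log10 q-value that the authors deposited only broke ties in ranking here. Which aligner, caller and IDR cutoff were used, and the read depth, is not given in the sources used here. No depth can therefore be stated. Lists in dm3 were not used.

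Genes and starts came from Ensembl release 115 (annotation 6.54) and sequence from the RefSeq Release 6 assembly, both in dm6 coordinates, printed 1-based. Chromosomes X and 4 and the arms of 2 and 3 were kept. An overlap was 1 bp or more. A summit within 500 bp of a start was classed as promoter and the rest by the annotated feature they lay in, exons before introns, with starts of protein-coding and non-coding RNA genes. Intervals are exact Clopper-Pearson at 95%. Ranks order peaks by signal within a list. The counting steps were tested on simulated data with planted peaks. Software was pandas 2.3.3 and numpy 2.4.6 under Python 3.11.15, with scipy 1.17.1 for intervals and matplotlib 3.10.9 for figures.

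The genes and lists were chosen with earlier results of these data known, so no test over them was made. All 10 genes are named, of the pathway list the genes with an IDR peak (the rule allowed 8 by signal, and Nedd4, the remaining 1, was added after its value was seen), and neighbours whose start is within 500 bp of a peak in the 10 regions. Alternatives changed the flank, the promoter window, the overlap rule, the strictness of the list and the replicate used.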

Additional observations from a re-analysis of the deposited data

How the results depend on the processing

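No paired analysis was possible because all samples form 1 group. Without a flank, 5 members had an IDR peak, against 11.1% of all protein-coding genes, with 5 IDR peaks in all. The peaks of dx, kuz and Nct lay outside the gene bodies. So did the downstream peak of mib1 and the outer peak of aph-1, the strongest of the 10. Among the 932 IDR peaks of higher signal, 2 members (aph-1 and mam) kept a peak, against 11.5% of all genes, with 3 peaks in all, and 1 member (aph-1) a summit at its own start, against 5.74%. Within 1000 bp of a start, 6 members had a summit, against 12.4% of all genes, because dx, kuz and Nct were then counted through their neighbours' peaks. Taking the 1865 best peaks of a single replicate in place of the IDR list gave 6 to 7 members with a peak, against 20.1 to 20.3% of all genes, 7 to 9 peaks, and 2 members with a summit at an own start, against 10.1 to 10.5%. The median rank of the best peak per member ran from 1227 to 1455, against 1286 in the pooled list. The share of pooled peaks found in both replicates fell to 39.3% when 0.5 of the width had to be covered or the summit had to lie inside, and to 25.0% with the 10000 top-ranked peaks of each replicate. The share of summits away from starts was 81.0% with a window of 250 bp and 81.5% without a flank. Neither share was computed over all pooled peaks under these settings. These values therefore cannot be set against the 43.8% and 72.1% of all pooled peaks under the main settings. The other settings tried, among them a flank of 5 kb and the nearest start only, stayed within 1.5 times the count or within the interval of the share. With a flank of 5 kb, 8 members had an IDR peak, against 29.0% of all protein-coding genes. Counting the nearest start only, 3 members had a summit at an own start, against 7.52%, and within 250 bp also 3, against 8.58%. Read depth is not known, and the absence of a peak says only that none was listed.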
